A study of Homo sapiens with 6 samples.

Results

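The zinc finger rows ZNF492, ZNF677, ZNF560, ZNF600 and ZNF849P are 5 of 16199 rows and 5 of the 500 rows whose symbol begins with ZNF and a number. These ZNF rows include pseudogenes and noncoding RNAs named after a zinc finger gene, such as ZNF426-DT and ZNF561-AS1. The 5 members were chosen by symbol because their counts switch or shift between Dicer genotypes or between libraries, so their own differences are described here and not tested. The libraries were made by iCLIP, in which protein and RNA are joined by ultraviolet light and the RNA that stays with the protein is sequenced, here after pull-down of Ago2, the Argonaute that carries microRNAs. The cells were H1, a long-established human embryonic stem cell line. The 3 genotypes had 2 libraries each. The S1344L hemizygous cells (pm/fs in the labels) and the S1344L homozygous cells (pm/pm) were made with CRISPR-Cas9. Both carry a substitution of Dicer, the enzyme that cuts microRNA precursors. Hemizygous cells carry it on a single allele and homozygous cells on both. The letters pm and fs are read here as point mutation and frameshift. The wild-type cells carry no such change. Cells of all 3 genotypes had grown for 10 days without doxycycline. For every library the labels give ultraviolet light of 150 mJ/cm2, with 254 as the wavelength and 2 exposures. Whether the 2 libraries of a genotype came from 1 clone or several, or from separate cultures, is not given in the sources used here, so the spread between them may be technical.

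Zinc finger genes of this kind encode DNA-binding proteins with an array of zinc fingers, most of them joined to a KRAB domain. The KRAB domain recruits TRIM28, a scaffold for the histone methyltransferase SETDB1, which marks the bound DNA with repressive methylation of histone H3, and many members of the family bind and silence transposable elements. The family grew by duplication, much of it lies in clusters on chromosome 19, and neighbouring copies share sequence, so reads can be assigned to the wrong copy. In pluripotent cells the family and TRIM28 are known for keeping endogenous retroviruses silent. All 5 members lie on chromosome 19, as do 248 of the 500 ZNF rows. In GRCh38.p14 coordinates, ZNF492 (gene 57615, protein-coding) spans chr19:22634324-22667671, and the pseudogene ZNF849P (gene 100130108) spans chr19:22685183-22686524, starting 17.5 kb after it. ZNF560 (gene 147741) spans chr19:9445876-9506692, ZNF600 (gene 162966) chr19:52764164-52833645 and ZNF677 (gene 342926) chr19:53235381-53254873, all protein-coding, the last of them 402 kb after ZNF600.

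The 250 bases before an annotated start are shown for the members with an entry in the RefSeq promoter table (GRCh38.p14), because these genes differ in how far and how abruptly their counts moved. The stretches are ZNF492 at chr19:22634074-22634323 on the plus strand, ZNF560 at chr19:9498617-9498866 on the minus strand and ZNF677 at chr19:53254874-53255123 on the minus strand, each written 5′ to 3′ with CG dinucleotides in capitals. The ZNF560 stretch precedes a start inside the gene's annotated span. ZNF600 and ZNF849P are named only.
ZNF492: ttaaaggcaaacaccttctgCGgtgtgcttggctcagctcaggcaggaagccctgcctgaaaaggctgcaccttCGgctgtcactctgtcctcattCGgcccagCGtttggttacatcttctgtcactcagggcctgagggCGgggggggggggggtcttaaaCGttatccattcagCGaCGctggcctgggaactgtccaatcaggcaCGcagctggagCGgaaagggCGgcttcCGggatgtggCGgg
ZNF560: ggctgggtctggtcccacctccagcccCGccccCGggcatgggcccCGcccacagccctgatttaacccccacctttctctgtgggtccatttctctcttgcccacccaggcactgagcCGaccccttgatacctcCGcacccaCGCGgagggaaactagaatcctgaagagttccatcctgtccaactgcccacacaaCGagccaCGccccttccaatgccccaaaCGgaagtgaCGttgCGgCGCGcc
ZNF677: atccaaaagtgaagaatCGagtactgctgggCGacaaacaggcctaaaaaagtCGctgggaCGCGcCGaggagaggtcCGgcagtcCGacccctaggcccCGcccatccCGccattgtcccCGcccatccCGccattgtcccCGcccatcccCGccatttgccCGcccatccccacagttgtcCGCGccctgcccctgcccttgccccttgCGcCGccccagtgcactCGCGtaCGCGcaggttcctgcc
The ZNF492 stretch held 13 CG dinucleotides and the ZNF560 stretch 14, against 23 in that of ZNF677. Another annotated start of ZNF677 has its stretch at chr19:53254824-53255073, largely the same bases, with 28 CG dinucleotides, a number that 15.9% of all stretches reached. Of all 35116 stretches of this length in the table, 46.6% held at least 13, 44.8% at least 14 and 25.8% at least 23, and the median was 11. Stretches of measured ZNF genes had a median of 18. The motif GGGCGG, read on both strands, was found 2 times in the ZNF492 stretch, 2 times in that of ZNF560 and 5 times in that of ZNF677, and at least once in 42.6% of all stretches. TATAAA, also read on both strands, was found in none of the 3 and in 10.7% of all stretches. These are counts of letters, and no methylation or factor binding was measured.

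Libraries held 38.2 M to 52.9 M counts. CPM are counts scaled to a common library total with TMM factors, which correct for differences in composition. DICER1 stood at 118 and 96.4 CPM in hemizygous, 129 and 118 CPM in homozygous, and 169 and 126 CPM in wild-type libraries. A substitution need not alter this count, and the part of the second hemizygous allele in it was not tested. All 10 stem cell markers, such as POU5F1 and NANOG, had rows and summed to 10790 to 11958 CPM in hemizygous, 10421 to 11022 CPM in homozygous and 9977 to 10472 CPM in wild-type libraries. Of the marker lists of other cells, 6 of 10 stromal genes had rows, summing to 714 to 848 CPM in hemizygous, 639 to 684 CPM in homozygous and 797 to 880 CPM in wild-type libraries, while COL3A1, LUM, DCN and TWIST1 had none. Neuroectoderm had 5 of 7, summing to 423 to 539 CPM in hemizygous, 393 to 406 CPM in homozygous and 446 to 491 CPM in wild-type libraries, with PAX6 and SOX1 not listed. Mesendoderm had 1 of 7 (at most 3.07 CPM in any library) and trophoblast and amnion 1 of 6 (at most 10.5 CPM). The part of such cells in the values below was not tested. Counts in these libraries can follow Ago2 binding or transcript level, and fewer cells that make a transcript cannot be told apart from less of it per cell.

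ZNF492, a KRAB zinc finger gene, was lower in the hemizygous libraries. It had 14 and 17 counts there, 116 and 81 in the homozygous libraries and 118 and 51 in the wild-type libraries. As CPM these were 0.365 and 0.323 in hemizygous libraries, 2.56 and 1.99 in homozygous libraries, and 2.28 and 1.30 in wild-type libraries. Both hemizygous values lay below all 4 others, and the homozygous and wild-type libraries overlapped. The 95% exact Poisson intervals, which cover counting error only and treat reads as independent molecules, ran from 0.188 to 0.612 CPM over the hemizygous libraries, and the lowest bound among the other 4 libraries was 0.971 CPM. The mean was 0.344 ± 0.0300 CPM (SD, n = 2) in hemizygous, 2.27 ± 0.397 in homozygous and 1.79 ± 0.686 in wild-type libraries. On the log2 scale the hemizygous to wild-type fold change was -2.38 (SE 0.40), and 0.0926% of all rows lay at least as far from 0. The homozygous fold change was 0.34 (SE 0.35) against wild-type and 2.72 (SE 0.40) against hemizygous. Between libraries of the same replicate number, hemizygous minus wild-type was -2.50 for replicate 1 and -1.88 for replicate 2.

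ZNF849P, the pseudogene next to ZNF492, was also lower in both hemizygous libraries than in the 4 others. Its counts were 6 and 6 in the hemizygous libraries, 35 and 41 in the homozygous and 61 and 25 in the wild-type libraries. The CPM were 0.156 and 0.114 in hemizygous, 0.771 and 1.01 in homozygous, and 1.18 and 0.640 in wild-type libraries. The homozygous pair fell between the wild-type values. Log2 fold changes were -2.76 (SE 0.49) for hemizygous against wild-type, -0.04 (SE 0.40) for homozygous against wild-type and 2.72 (SE 0.49) for homozygous against hemizygous. With 6 counts the hemizygous intervals ran from 0.0418 to 0.341 CPM, so the size of the gap is loosely set. A pseudogene can take reads of the gene it resembles, and the table does not say how reads with several matches were counted.

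ZNF560, a KRAB zinc finger gene, differed abruptly between the hemizygous libraries. It had 28 counts in hemizygous replicate 1 and 1155 in hemizygous replicate 2. The homozygous libraries had 167 and 150 counts, and the wild-type libraries 995 and 706. As CPM, the level was 0.730 in hemizygous replicate 1 and 21.9 in hemizygous replicate 2, 3.68 and 3.69 in homozygous libraries, and 19.2 and 18.1 in wild-type libraries. Hemizygous replicate 1 was the lowest of the 6 libraries and hemizygous replicate 2 the highest, 30.0-fold apart, while the homozygous libraries lay close together and below both wild-type libraries. The Poisson intervals of the hemizygous libraries, 0.485 to 1.06 CPM and 20.7 to 23.2 CPM, were far apart, and those of the homozygous libraries (3.13 to 4.33 CPM over both) overlapped neither the hemizygous nor the wild-type ones. The mean was 11.3 ± 15.0 CPM (SD, n = 2) in hemizygous, 3.69 ± 0.00940 in homozygous and 18.6 ± 0.794 in wild-type libraries. A hemizygous mean of this kind describes neither library.

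The homozygous to wild-type fold change of ZNF560 was -2.34 (SE 1.16) on the log2 scale, and between libraries of the same number it was -2.37 and -2.28. Its wide error comes with the spread of the hemizygous libraries, which share the estimate. Hemizygous against wild-type gave -0.71 (SE 1.09). That value was 0.24 without hemizygous replicate 1 and -4.67 without hemizygous replicate 2. Homozygous against hemizygous gave -1.63 (SE 1.14), -2.57 without hemizygous replicate 1 and 2.33 without hemizygous replicate 2. With limma-voom, hemizygous against wild-type was -2.02 and homozygous against hemizygous -0.32. Among all 16199 rows, 3 differed between the hemizygous libraries by 4.83 or more on the log2 scale, the gap of ZNF560. They were ZNF560 itself, COL12A1, a collagen, and ITPK1, an inositol kinase, the last pair named after their values were seen. COL12A1 was high in replicate 1 (264 and 7.84 CPM in hemizygous replicates 1 and 2), and ITPK1 was high in replicate 2 (0.913 and 28.0 CPM). COL12A1 differed in the same direction between the wild-type libraries (205 and 10.9 CPM), whereas ZNF560 did not separate them (1.06-fold) or the homozygous libraries (1.00-fold).

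**Figure D1:**
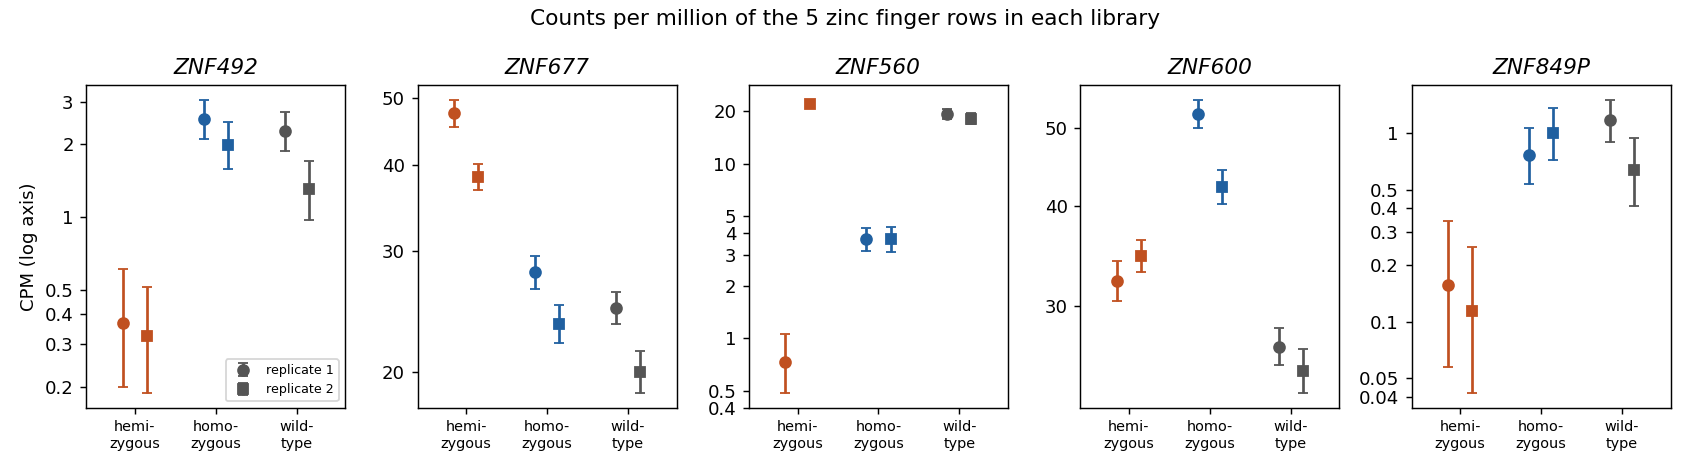
Each panel plots the CPM of a zinc finger row on a log axis in hemizygous, homozygous and wild-type libraries, with a circle for replicate 1, a square for replicate 2 and bars for the 95% Poisson interval of the count. ZNF492 and ZNF849P are low in both hemizygous libraries, ZNF560 runs from 0.730 to 21.9 CPM within the hemizygous genotype, and the genotype means of ZNF677 and ZNF600 lie less than 2-fold apart.

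ZNF677, a KRAB zinc finger gene that is silenced by promoter methylation in several cancers, was highest in the hemizygous libraries. Its CPM were 47.5 and 38.4 in hemizygous libraries, 27.9 and 23.5 in homozygous libraries, and 24.8 and 20.0 in wild-type libraries, from 782 to 2025 counts. Both hemizygous values lay above all 4 others, and the homozygous and wild-type libraries overlapped. The mean was 43.0 ± 6.42 CPM (SD, n = 2) in hemizygous, 25.7 ± 3.15 in homozygous and 22.4 ± 3.37 in wild-type libraries. Log2 fold changes were 0.94 (SE 0.19) for hemizygous against wild-type, 0.20 (SE 0.18) for homozygous against wild-type and -0.74 (SE 0.18) for homozygous against hemizygous. Replicate 1 exceeded replicate 2 in each genotype, by 1.24-fold in hemizygous, 1.19-fold in homozygous and 1.24-fold in wild-type libraries. Between libraries of the same number, hemizygous minus wild-type was 0.94 for replicate 1 and 0.94 for replicate 2.

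ZNF600, a KRAB zinc finger gene that lies before ZNF677 on the chromosome, was highest in the homozygous libraries. Its CPM were 32.3 and 34.7 in hemizygous, 52.1 and 42.2 in homozygous, and 26.7 and 24.9 in wild-type libraries, from 975 to 2364 counts. The 3 genotypes did not overlap, with wild-type lowest and hemizygous between. The mean was 33.5 ± 1.68 CPM (SD, n = 2) in hemizygous, 47.1 ± 6.98 in homozygous and 25.8 ± 1.26 in wild-type libraries. Log2 fold changes were 0.37 (SE 0.15) for hemizygous against wild-type, 0.87 (SE 0.15) for homozygous against wild-type and 0.49 (SE 0.15) for homozygous against hemizygous. ZNF600 overlaps ZNF28 in the annotation, and whether strand was used in counting is not given, so reads of the overlap are uncertain. ZNF28 had fold changes of 0.17 in hemizygous and 0.03 in homozygous libraries against wild-type.

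By genotype, the libraries of 4 of the 5 members did not overlap between hemizygous and wild-type cells (ZNF677 and ZNF600 higher, ZNF492 and ZNF849P lower), where 17.3% of all rows were so separated in either direction. Between homozygous and wild-type cells 2 of 5 did not overlap (ZNF600 higher, ZNF560 lower), beside 27.9% of all rows. Between homozygous and hemizygous cells 4 of 5 did not (ZNF492, ZNF849P and ZNF600 higher, ZNF677 lower), beside 21.4% (11.0% upward and 10.4% downward). The members were chosen on these contrasts, so nothing is read from their counts. Both mutant genotypes share the same wild-type libraries. Over the 6 libraries, ZNF560 spanned 4.83 on the log2 scale, which 10 rows reached or passed, itself included. ZNF849P spanned 2.94 and ZNF492 2.82, which 74 and 77 rows reached or passed. ZNF677 and ZNF600 spanned 1.25 and 1.06, as far as 8.40% and 13.3% of all rows.

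Neighbours were looked for among the 14912 rows placed on RefSeq. The rows left out were 1243 named by an Ensembl ID and some whose symbol had no match there. Against wild-type, ZNF492 and ZNF849P lay further from 0 in hemizygous cells than the nearest placed rows that are not members. The same held for ZNF560 in homozygous cells. The members were chosen for such shifts, so these gaps are favoured by the choice. The nearest row before ZNF492 was ZNF43, 782 kb away, and its log2 fold change from wild-type was 0.06 (SE 0.13) for hemizygous and -0.05 (SE 0.13) for homozygous libraries. After ZNF849P came ZNF730, 389 kb away, with 0.20 (SE 0.14) and 0.16 (SE 0.14). The low hemizygous counts were thus seen in both rows of a stretch with no other placed row nearer than 389 kb. Genes of the 19p12 list such as ZNF98, ZNF99, ZNF723 and ZNF728 had no row and could not be compared. ZNF560 stood between ZNF266, 10.3 kb before it, and ZNF426, 16.5 kb after it. ZNF266 had 0.04 (SE 0.14) in hemizygous and 0.33 (SE 0.14) in homozygous libraries, and ZNF426 had 0.14 (SE 0.22) and 0.06 (SE 0.22). None of the 17 placed rows within 500 kb of ZNF560 was separated between genotypes by 1 or more on the log2 scale in any of the 3 comparisons. Such a separation was rare everywhere. Hemizygous libraries stood so apart from the wild-type ones in 0.290% of all rows. For homozygous libraries the share was 0.963% when set beside wild-type and 0.512% beside hemizygous ones. A count of 0 among 17 rows therefore says little.

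Around ZNF600, ZNF611 lay 29.1 kb before and ZNF468 4.37 kb after, with homozygous to wild-type fold changes of 0.13 (SE 0.25) and 0.10 (SE 0.20). Homozygous libraries did not overlap wild-type and were higher in 12 of the 27 placed rows within 500 kb of ZNF600, and lower in 1 (ZNF702P, -0.54). Over all rows 14.2% were separated upward and 13.6% downward. The median of the 27 rows was 0.14. NDUFV2P1, a pseudogene 10.5 kb before ZNF677, had a hemizygous to wild-type fold change of 0.03 (SE 0.24), and ZNF845, 78.9 kb after it, had 0.17 (SE 0.25).

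**Figure D2:**
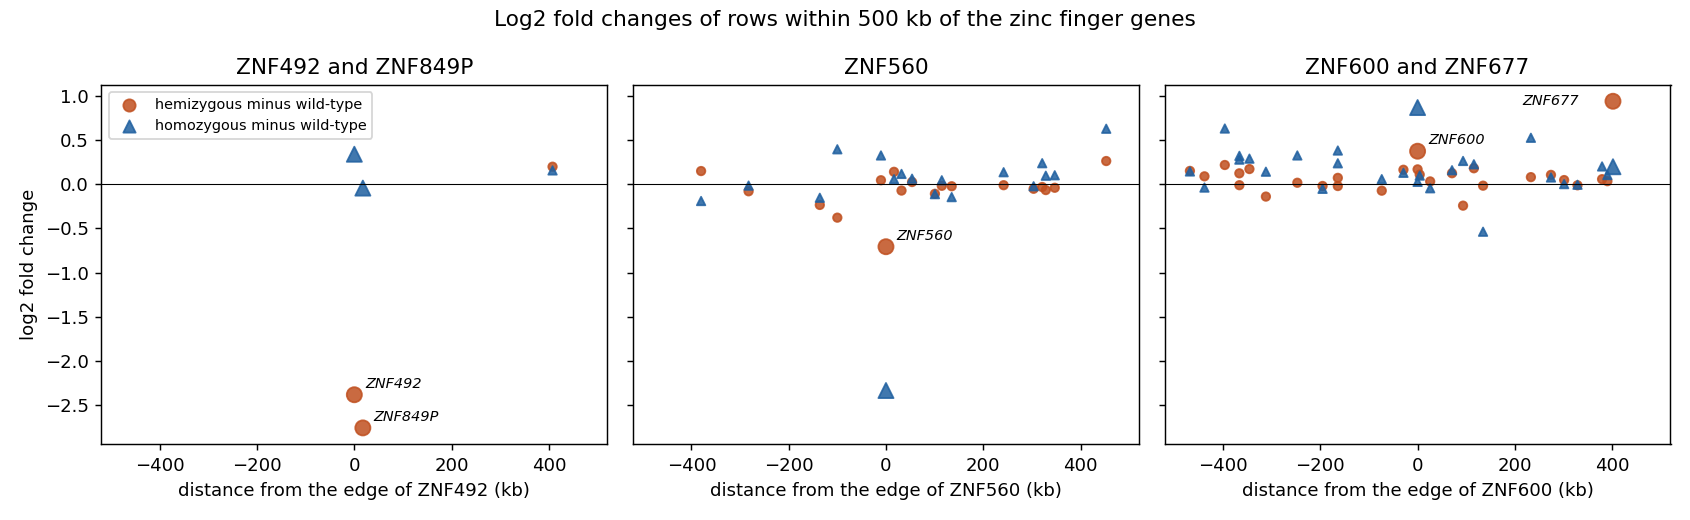
The log2 fold change of each row within 500 kb is plotted against its distance in kb from the edge of ZNF492, ZNF560 or ZNF600, with circles for hemizygous minus wild-type, triangles for homozygous minus wild-type and larger marks for the members. ZNF492 and ZNF849P lie at -2.38 and -2.76 in hemizygous cells and ZNF560 at -2.34 in homozygous cells, while the rows other than the members stay between -0.54 and 0.63.

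ZNF492 and ZNF849P were each the row most like the other among the 14912 rows placed on RefSeq. All of these rows met the limit of a mean of at least 10 counts. Likeness was the root-mean-square difference of log2 CPM, each row centred on its own mean over the 6 libraries. It was 0.26 for ZNF492 and ZNF849P (Pearson r = 0.975 over 6 libraries). The next rows were more distant. For ZNF492 they were LINC01090 at 0.63 and JOSD2 at 0.65, and for ZNF849P they were MOAP1 at 0.57 and LINC01090 at 0.67. ZNF677 was most like DACH1 (0.13), FBXL13 (0.17) and ELMOD1 (0.17), and ZNF600 most like KCNJ5-AS1 (0.11), TBXA2R (0.11) and FGF4 (0.12), a growth factor of pluripotent cells at 24.0 and 25.1 CPM in hemizygous, 30.2 and 28.3 CPM in homozygous, and 17.5 and 17.0 CPM in wild-type libraries. For ZNF560 no row came near: SPATA1 at 1.22, TOP3A at 1.25 and PSME2P2 at 1.27 were the nearest. The members were chosen for shifts in these same libraries, and with 6 libraries many rows share a shape, so likeness is a description.

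The other 495 ZNF rows ran from -0.59 to 0.61 on the log2 scale for hemizygous against wild-type. ZNF492, ZNF849P and ZNF560 (-0.71) lay below that range, ZNF677 (0.94) above it and ZNF600 (0.37) inside it. The place of ZNF560 depended on the library, with 0.24, inside the range, without hemizygous replicate 1 and -4.67 without hemizygous replicate 2. For homozygous against wild-type the 495 ran from -0.87 to 0.85. ZNF560 lay below and ZNF600 (0.87) just above, with ZNF492, ZNF849P and ZNF677 (0.34, -0.04 and 0.20) inside. The members were chosen for such shifts, so their place outside these ranges is favoured by the choice. None of the 495 was called by edgeR's quasi-likelihood test at an adjusted p under 0.05 in any comparison, and DESeq2 and limma-voom called 0 of them too. Among all 16199 rows limma-voom called 0 and DESeq2 called 7 to 10 per comparison. At an unadjusted p under 0.05, edgeR gave 2 for hemizygous against wild-type, 12 for homozygous against wild-type and 3 for homozygous against hemizygous. Over all 16199 rows edgeR called 0 in each comparison and 0.870%, 2.69% and 0.765% of rows (141, 435 and 124) had an unadjusted p under 0.05. With the replicate number as a block these were 616, 1942 and 1328 rows, and edgeR called 1, 0 and 1 rows. A count of 0 does not show that no row differs. Among the 500 ZNF rows, those not overlapping between groups and at least 1 apart on the log2 scale were ZNF492 and ZNF849P for hemizygous against wild-type (0.290% of all rows passed) and ZNF560 for homozygous against wild-type (0.963% of all rows). For homozygous against hemizygous they were ZNF492, ZNF849P and ZNF385D (0.512% of all rows). ZNF385D, on chromosome 3, stood at 10.1 and 8.07 CPM in hemizygous, 3.70 and 5.34 CPM in homozygous and 7.11 and 4.71 CPM in wild-type libraries, just past that limit.

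Small upward values were common among the ZNF rows. Among the 248 ZNF rows of chromosome 19, 182 had a homozygous to wild-type fold change above 0 and 66 below, with a median of 0.10 on the log2 scale beside 0.00 over all rows. The groups were separated upward in 29.0% of these rows and downward in 4.03%, beside 14.2% and 13.6% of all rows. For hemizygous against wild-type the shares were 18.5% upward and 6.85% downward, beside 8.13% and 9.21% of all rows, with a median of 0.05. The homozygous to wild-type median was 0.17 between the replicate 1 libraries and 0.02 between the replicate 2 libraries, so the shift was smaller in the pair of replicate 2.

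In the cluster lists, members included, 24 of 26 measured rows of the 19p12 list were above 0 for hemizygous against wild-type (median 0.11), and the 2 below were ZNF492 and ZNF849P, beside 49.1% of all rows above 0. For homozygous against wild-type, 19 of 26 were above 0 (median 0.10), beside 49.3% of all rows. The 19q13.41 to 19q13.42 list, which holds ZNF600 and ZNF677, had 34 of 44 above 0 in hemizygous (median 0.08) and 35 of 44 in homozygous libraries (median 0.11). The 19p13.2 list, which holds ZNF560, had 3 of 14 above 0 in hemizygous (median -0.05) and 8 of 14 in homozygous libraries (median 0.06). Between libraries of replicates 1 and 2, hemizygous to wild-type medians were 0.12 and 0.09 (19p12), 0.10 and 0.002 (19q13.41 to 19q13.42), and -0.06 and 0.008 (19p13.2). In the same order, homozygous to wild-type medians were 0.15 and 0.09, 0.18 and 0.02, and 0.10 and 0.003. The upward medians of the 19q13.41 to 19q13.42 list thus lay mostly in the replicate 1 pairs. Without the members, edgeR, DESeq2 and limma-voom called 0 of the 24, 42 and 13 rows of these 3 lists in any comparison. Among all 16199 rows edgeR and limma-voom also called 0, and DESeq2 called 7 to 10 per comparison, so counts of 0 here say little. At an unadjusted p under 0.05, edgeR gave 1 of 24, 0 of 42 and 0 of 13 for hemizygous against wild-type, beside 0.870% of all rows, and 1, 1 and 1 for homozygous against wild-type, beside 2.69% of all rows.

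Genes listed as cofactors of KRAB zinc finger proteins had small log2 fold changes. TRIM28 stood at 862 and 823 CPM in hemizygous, 904 and 805 CPM in homozygous and 827 and 916 CPM in wild-type libraries, and its log2 fold change from wild-type was -0.05 (SE 0.13) for hemizygous and -0.03 (SE 0.13) for homozygous cells. SETDB1 stood at 60.1 and 70.5 CPM in hemizygous, 68.4 and 66.1 CPM in homozygous and 61.9 and 67.3 CPM in wild-type libraries, with 0.02 (SE 0.14) and 0.06 (SE 0.14). Of 28 measured cofactor genes, 20 were above 0 in hemizygous against wild-type cells (median 0.03), beside 49.1% of all rows. In homozygous against wild-type cells 12 were above 0 (median -0.02), beside 49.3% of all rows. Fold changes of the list stayed between -0.22 and 0.27 in the comparisons with wild-type and between -0.30 and 0.26 for homozygous against hemizygous. edgeR, DESeq2 and limma-voom called 0 of the 28, and 0 had an unadjusted p under 0.05 in any of the 3 comparisons. Over all rows edgeR and limma-voom also called 0, and DESeq2 called 7 to 10 per comparison. For hemizygous and homozygous against wild-type and homozygous against hemizygous, 0.870%, 2.69% and 0.765% of all rows had an unadjusted p under 0.05. Counts of 0 among 28 genes therefore say little.

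**Figure D3:**
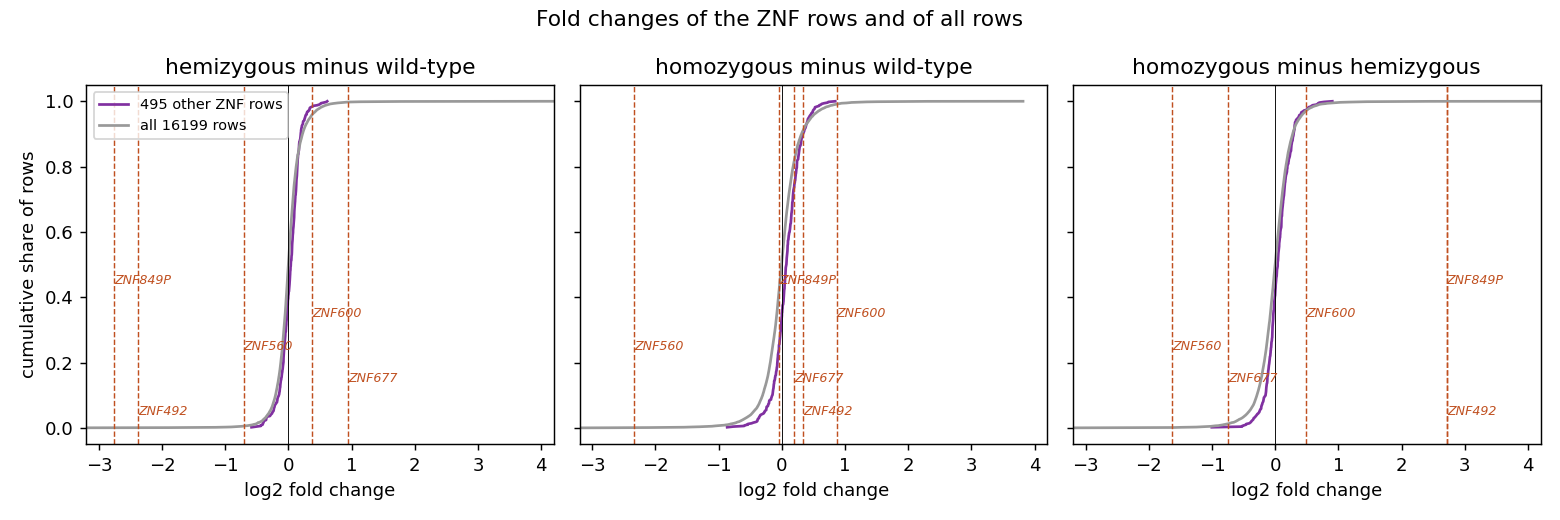
Cumulative shares of rows are plotted against the log2 fold change for the 495 other ZNF rows (purple) and all 16199 rows (grey) in each comparison, with dashed lines at the 5 members. Against wild-type the other ZNF rows run from -0.59 to 0.61 (hemizygous) and -0.87 to 0.85 (homozygous). Outside these lie ZNF849P (-2.76), ZNF492 (-2.38), ZNF560 (-0.71) and ZNF677 (0.94) in hemizygous cells. The hemizygous value of ZNF560 is 0.24, inside the range, without hemizygous replicate 1 and -4.67 without hemizygous replicate 2. In homozygous cells ZNF560 (-2.34) and ZNF600 (0.87) lie outside.

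Between replicates ZNF560 stood apart from the other ZNF rows in hemizygous cells, which the choice of members by such shifts favours. In hemizygous cells 10 of 500 ZNF rows (2.00%) differed by at least 1 on the log2 scale between the libraries, beside 5.76% of all rows, and ZNF560 alone differed by 2 or more. In homozygous cells 3 rows (0.600%) differed by at least 1, beside 1.96% of all rows, and in wild-type cells 8 (1.60%), beside 5.09%. No ZNF row differed by 2 or more in these genotypes. After ZNF560, the widest differences in hemizygous cells were those of ZNF470-DT (-1.59, replicate 1 minus replicate 2), ZNF221 (1.48) and ZNF471 (1.43). ZNF492 and ZNF849P differed by 0.78 and 0.84 between the wild-type libraries, as far as 9.25% and 7.99% of all rows.

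**Figure D4:**
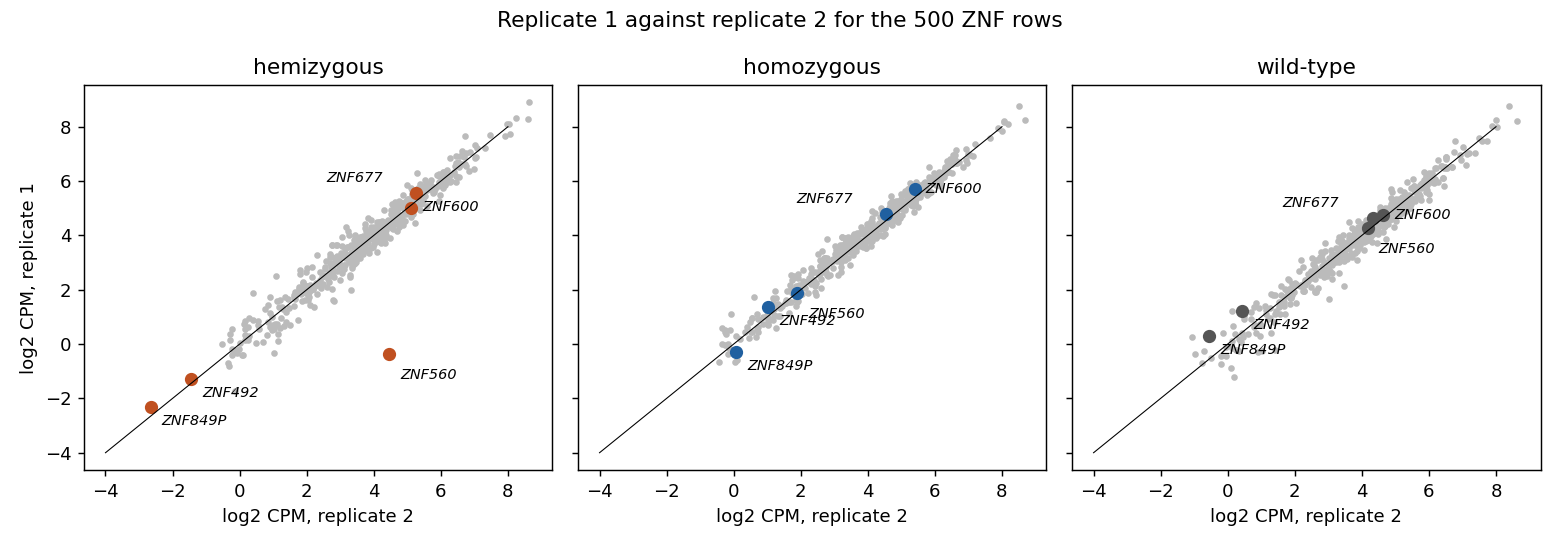
The log2 CPM of replicate 1 is plotted against that of replicate 2 for the 500 ZNF rows in each genotype, with the line of equal values and the 5 members in colour. ZNF560 lies 4.83 below the line in the hemizygous panel and near the line in the homozygous and wild-type panels.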

How the data were processed

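Ago2 iCLIP libraries of H1 cells were counted per gene. The authors deposited whole-number counts, with no normalization, for 16199 rows, and the genome build was hg38 per the submitters' processing notes. Not given in the sources used here were the aligner, the counting tool, the use of strand and molecular identifiers. The lowest row total was 132. Columns were tied to samples by their descriptions, and 0 were left unused.

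Members and lists were chosen with earlier results of these data known. Counts were scaled with TMM, filtered with filterByExpr (all rows kept, the 5 members included) and fitted with the quasi-likelihood test of edgeR 4.0.16 in R 4.3.3, with a mean per genotype over all 6 libraries and Benjamini-Hochberg adjustment at 0.05. Standard errors divide the fold change by the root of its F value, SDs are from 2 libraries, and log2 CPM used a prior count of 2. Named were the members, DICER1, AGO2, TRIM28 and SETDB1, the nearest row on each side of a member, the 3 rows most like it, and up to 5 ZNF rows per comparison separated by 1 or more. AGO2 stood at 277 and 231 CPM in hemizygous, 268 and 199 CPM in homozygous and 218 and 222 CPM in wild-type libraries. Symbols of 14912 rows were placed on RefSeq GRCh38.p14. Alternatives were other scalings and filters, DESeq2 1.42.0, limma-voom (limma 3.58.1), fewer libraries and a replicate block. The fit was tested on simulated counts with 200 genes changed.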

Additional observations from a re-analysis of the deposited data

How the results depend on the processing

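The 15 member fold changes (5 rows in 3 comparisons) kept their sign under all 9 alternatives other than leaving out a library. The alternative filters among these 9, no filter and 20 counts in 2 libraries, kept all 16199 rows and could not move any value. Of the 15 fold changes, 12 stayed within 1.5 times of their value. The other 3 were ZNF560 for hemizygous against wild-type (-0.71, against -2.02 with limma-voom and -1.27 with the replicate block), ZNF560 for homozygous against hemizygous (-1.63, against -0.32 with limma-voom and -1.12 with the replicate block) and ZNF849P for homozygous against wild-type, which was near 0 under all 9. Leaving out a library turned 4 signs. ZNF560 was 0.24 for hemizygous against wild-type without hemizygous replicate 1 (range over all libraries left out -4.67 to 0.24) and 2.33 for homozygous against hemizygous without hemizygous replicate 2 (range -2.57 to 2.33). ZNF849P, at -0.04 for homozygous against wild-type, was 0.14 without homozygous replicate 1 and 0.48 without wild-type replicate 1 (range -0.39 to 0.48). Against edgeR's 0 called rows, DESeq2 called 7 for hemizygous against wild-type, 10 for homozygous against wild-type and 10 for homozygous against hemizygous. With a library left out edgeR's counts ranged from 0 to 2, 0 to 1 and 0 to 3 in these comparisons, and the count of 2 came without either hemizygous library and the 3 without hemizygous replicate 1, and 1 came without wild-type replicate 1 (both comparisons with wild-type) and without hemizygous replicate 1 (homozygous against wild-type). The cause was not tested. The replicate block called 1 row for hemizygous against wild-type, 0 for homozygous against wild-type and 1 for homozygous against hemizygous. Deviations of same-numbered libraries correlated at r = 0.741 (hemizygous and wild-type), 0.476 (hemizygous and homozygous) and 0.357 (homozygous and wild-type) across genes, and the labels do not tie the numbers to a shared batch. Depth limits ZNF849P and ZNF492 most, with 6 to 17 counts in the hemizygous libraries.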
